A study of Mus musculus with 2 samples.

Results

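Cells take up amino acids through membrane carriers of the solute carrier (SLC) families, and 45 genes of these families were followed here in mouse cultures grown to become TH9 cells, CD4 T helper cells that secrete the cytokine IL-9. The genes were chosen by symbol from all 20651 mouse genes with a matched array probe. They are the carriers of families SLC1, SLC7, SLC36, SLC38 and SLC43, both heavy chains Slc3a1 and Slc3a2, the taurine carrier Slc6a6 and the glycine carrier Slc6a9. The symbol rule also took Slc7a6os, which lies opposite Slc7a6 and encodes no carrier, and it is kept apart where that matters. Reference symbols that fit the rule number 47, and Slc36a1os and Slc36a3os have no matched probe.

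The study asked what the deacetylase SIRT1 does in IL-9-producing CD4 T cells. One sample came from mice of genotype SIRT1flox/flox-CD4-Cre, in which Cd4 drives a Cre recombinase that acts on floxed Sirt1 alleles, and is called knockout below. The other came from wild-type mice, per the labels. In both groups sorted naive CD4 T cells of spleen and lymph node received antibodies to CD3 and CD28 plus IL-2, and then stayed for 5 days with IL-4 and TGFβ1. Neither the age of the mice nor how many were pooled is stated in the labels. Each genotype had 1 array, so no difference below has a replicate check, no test between the genotypes was possible, and "higher" and "lower" describe these 2 arrays. In such bulk samples, fewer cells of a type and less RNA per cell cannot be told apart.

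Resting T cells carry few amino acid carriers, and activation through the T cell receptor is known to raise several of them, above all the large neutral amino acid exchanger Slc7a5 with its partner Slc3a2 and the glutamine carriers Slc1a5, Slc38a1 and Slc38a2. The amino acids they bring in feed protein synthesis and keep the kinase complex mTORC1 active. Other members serve mainly nerve tissue, kidney, gut or the lysosome.

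The arrays were similar in depth of signal, with a 75th percentile of 558 on the knockout array and 584 on the wild-type array. Of the gene spots, 65.3% were well above background on the knockout array, against 57.1% for wild-type. The lowest signal that counted as well above background was 9.76 on the knockout array and 24.6 on the wild-type array, so dim transcripts were called above background more readily on the knockout array. Sirt1 had signals of 2920 on the knockout array and 3240 on the wild-type array. The sources used here do not say where its probe lies relative to the floxed exons, so the probe cannot check the genotype label. Il9, the defining TH9 cytokine, stayed below that limit on both arrays, at 7.36 on the knockout array and 5.48 on the wild-type array. The T cell markers Cd3d, Cd3e, Cd3g, Cd4, Cd5 and Lck were all well above background on both arrays, with Cd4 at 2500 on the knockout array and 2870 on the wild-type array. Markers of other cell types gave signal too, some of it high. On the knockout and wild-type arrays, Ms4a1 of B cells had 35900 and 50400, and S100a9 of neutrophils 89000 and 92000. The lists that were higher on the knockout array and those that were lower are set out below.

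Of the 45 genes, 27 were well above background on both arrays, 4 on the knockout array only, 1 on the wild-type array only and 13 on neither. The share on both arrays was 60.0%, against 62.7% of all genes. Among the 27, 14 were higher on the knockout array (51.9%, against 50.4% of all genes measured on both) and 13 lower (48.1%, against 49.6%), and 1 gene, Slc1a3, differed by at least 2-fold. That is 3.7% of the 27 at least 2-fold higher, against 3.97% of all genes measured on both arrays, and none was at least 2-fold lower, against 3.63% of all genes. The median difference was 0.0062 on the log2 scale (knockout minus wild-type), against 0.0037 over the 12958 genes. Neither the count past 2-fold nor the median set the carriers apart from other genes. With the sign left out, the median difference was larger for the 27, at 0.45 against 0.29 over all genes, which was not tested. With other scalings the share of all genes called shifted, to 6.18% higher and 2.25% lower after centring on the median, which moved the median of all genes to 0.19, and to 4.53% higher and 2.86% lower with loess. With normexp background correction it was 1.6% higher and 9.38% lower.

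**Figure D1:**
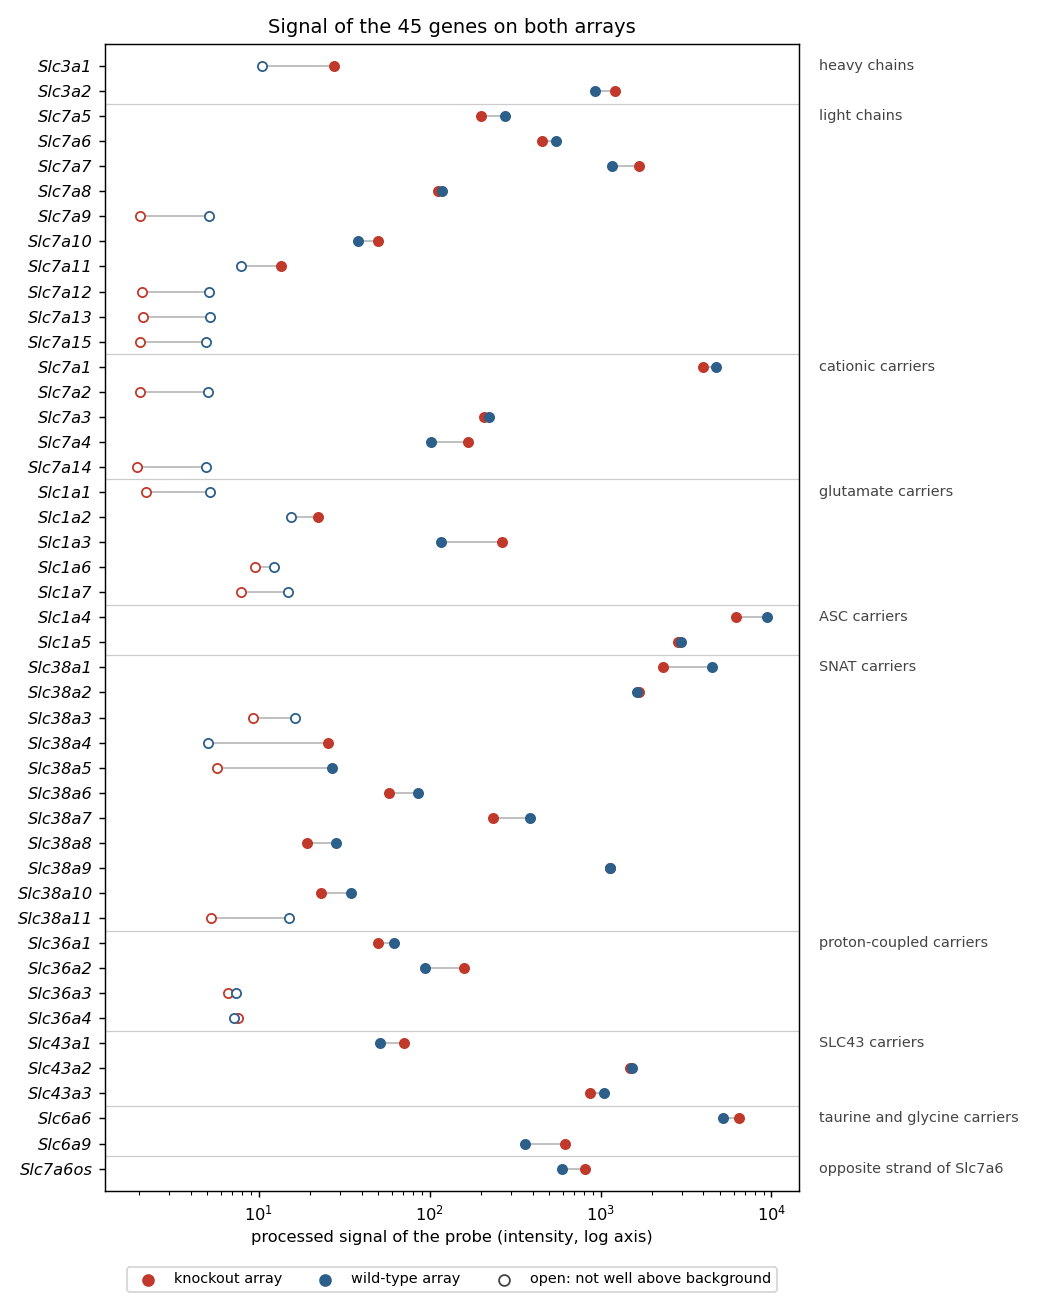
Processed signal of the brightest probe of each of the 45 genes on a log axis, grouped by role, with the knockout array in red and the wild-type array in blue. Open points were not well above background. Most pairs above a signal of 100 lie close together, while most genes with both points open sit at or near the floor of each array, which is lower on the knockout array. Positions of different genes cannot be compared, because probes differ in brightness.

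Differences smaller than 2-fold were read against the error the scanner software gives each spot, about 0.205 on the log2 scale for the median gene of the 27. That error covers the spot and not the animals or the culture. It is wider than the spread of repeated spots, since probes printed 10 times varied by a median SD of 0.0337 on the knockout array and 0.0374 on the wild-type array. By this measure 10 of the 27 genes were higher (37.0%, against 30.0% of all genes), 9 were lower (33.3%, against 30.6%) and 8 lay within the error.

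**Figure D2:**
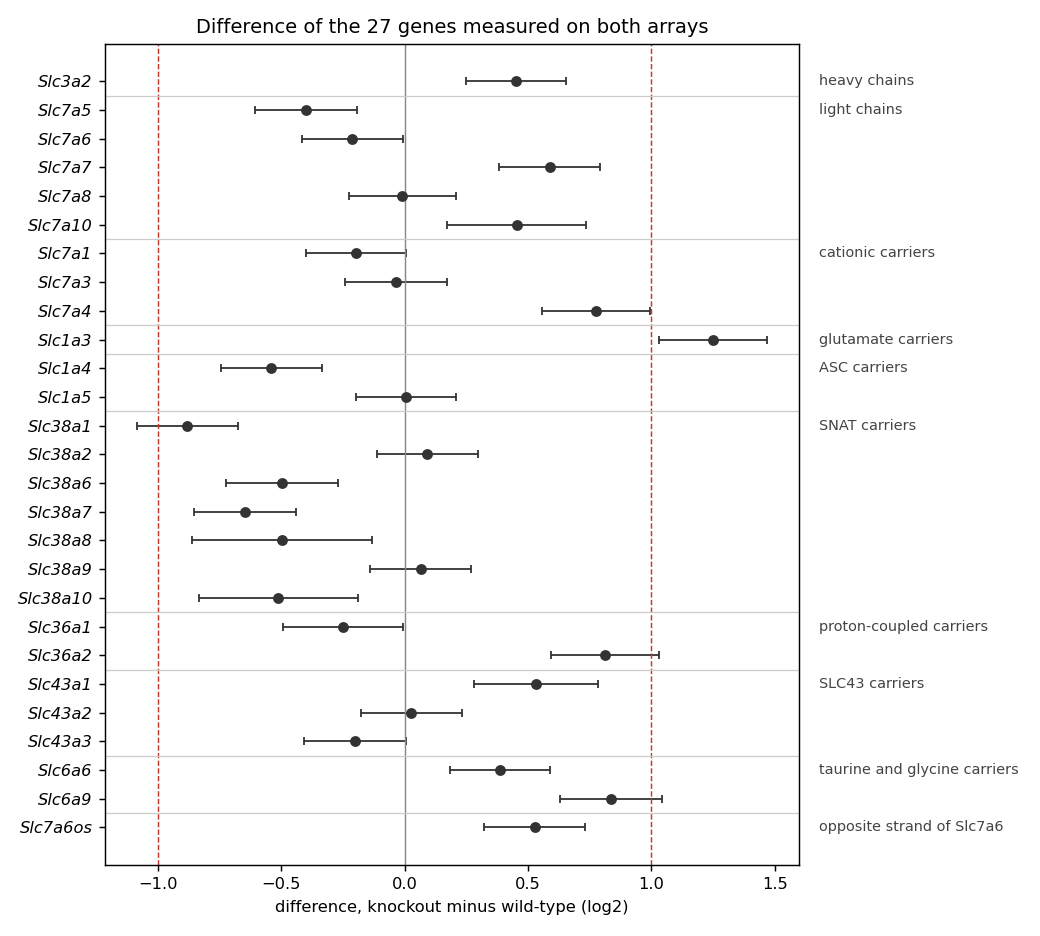
Difference between the arrays (knockout minus wild-type, log2) for the 27 genes well above background on both, with the scanner error as bars, in order of role. Dashed lines mark 2-fold in each direction. Slc1a3 alone lies past a dashed line, and the genes spread evenly to both sides of 0.

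The heavy chains anchor the SLC7 light chains in the membrane. Slc3a2, which encodes CD98 and serves most light chains in T cells, had signals of 1220 on the knockout array and 934 on the wild-type array, a difference of 0.45 ± 0.20 (log2, scanner error). This is 1.37-fold higher, and the log2 difference lay between 0.44 and 0.64 over the other scalings and the deposited value table. Slc3a1, the partner of light chains in kidney and gut, was well above background on the knockout array only, at 27.5 against 10.5. Its bound there was 1.17-fold, leaving out the scanner error, and with normexp its log2 difference was -0.92. Being seen on the knockout array only was common, as 1770 genes were (8.57% of all), against 143 on the wild-type array only (0.692%).

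Of the 10 light chain genes, 5 were measured on both arrays, and they did not share a direction. Slc7a5, the LAT1 exchanger that imports leucine and other large neutral amino acids, was lower by both its probes. Its brighter probe had 199 on the knockout array and 275 on the wild-type array, a difference of -0.40 ± 0.21, and its other probe gave -0.62. LAT1 and its heavy chain Slc3a2 thus stood on opposite sides of 0, each by more than its scanner error and by less than 2-fold. Slc7a6, which exchanges cationic for neutral amino acids, had 452 on the knockout array and 548 on the wild-type array (-0.21 ± 0.20). Slc7a7, its close relative, known from kidney and gut epithelium and from macrophages, went the other way with 1680 on the knockout array and 1170 on the wild-type array, a difference of 0.59 ± 0.20 or 1.5-fold. Slc7a8, or LAT2, printed on 10 spots, was nearly equal at 112.6 and 118.5. Slc7a10, a carrier of small neutral amino acids known from brain, had 49.6 on the knockout array and 37.9 on the wild-type array (0.45 ± 0.28), and this dim probe turned to -0.74 with normexp.

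Slc7a11 encodes xCT, which imports cystine in exchange for glutamate and is a known target of the stress factor ATF4. It was well above background on the knockout array only, at 13.5 against 7.87, below the lowest signal that the wild-type array could call, so no fold is given. Slc7a9, Slc7a12, Slc7a13 and Slc7a15, the first of which serves cystine uptake in kidney, were above background on neither array. Their signals lay between 2.01 and 2.11 on the knockout array and between 4.94 and 5.19 on the wild-type array, the floor of each array, so their negative differences carry no order.

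The promoters of 33 of the 45 genes are in the RefSeq table used (build GRCm38.p6, 250 bases before to 50 bases after each annotated start, 46 promoters in all). They were searched on both strands for TGATGNAA, the core of the composite C/EBP-ATF element through which ATF4 is known to act, and for the E-box CACGTG, which MYC and related factors bind. The first was found in 4 of the 46 promoters (8.7%), belonging to Slc7a7, Slc7a11 and Slc1a4, against 3.97% of all 32851 promoters. Of these 4, 2 are overlapping promoters of Slc7a7 that share 1 match. By gene the count was 3 of 33, with no share of all genes computed beside it. The E-box was found in 7 (15.2%), against 7.15% of all. The light chain promoters that hold the first motif are shown for their matches. Slc7a7 has 5 annotated starts, and that of chr14:54417895-54418194 (minus strand) holds it at 2 places. The promoter of Slc7a11 lies at chr3:50443564-50443863 (minus strand) and holds it at 2 places on opposite strands, first 66 bases before the start. Capitals mark the matches, 5′ to 3′ on the gene's strand.
Slc7a7 promoter: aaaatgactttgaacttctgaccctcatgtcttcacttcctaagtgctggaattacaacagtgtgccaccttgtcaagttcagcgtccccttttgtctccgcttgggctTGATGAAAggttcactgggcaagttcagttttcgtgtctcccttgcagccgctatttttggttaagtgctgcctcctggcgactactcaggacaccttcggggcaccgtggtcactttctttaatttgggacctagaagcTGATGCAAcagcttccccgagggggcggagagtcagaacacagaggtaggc
Slc7a11 promoter: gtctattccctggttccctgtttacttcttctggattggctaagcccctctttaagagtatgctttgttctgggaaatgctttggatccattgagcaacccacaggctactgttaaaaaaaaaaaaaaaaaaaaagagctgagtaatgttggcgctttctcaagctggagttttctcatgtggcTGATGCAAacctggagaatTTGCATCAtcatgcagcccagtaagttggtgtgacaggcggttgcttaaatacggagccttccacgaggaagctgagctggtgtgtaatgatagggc

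Cationic carriers, which bring in arginine and lysine, were close to equal where they are best known in T cells. Slc7a1, the main arginine carrier of dividing cells, had 3960 on the knockout array and 4750 on the wild-type array, a difference of -0.20 ± 0.20. Slc7a3, a related arginine carrier known from brain, had 208 and 223 (-0.03 ± 0.21). Slc7a4, a family member without established transport, was 1.71-fold higher on the knockout array, with 167 against 102. The other Slc7a4 probe was above background on neither array, and with normexp the difference was -0.099. Slc7a2, the arginine carrier of macrophages and liver, was above background on neither array, and neither was Slc7a14.

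In family SLC1, the glutamate carriers take up glutamate and aspartate and are best known from nerve tissue. Slc1a3, called GLAST and the glutamate carrier of astrocytes, had 266 on the knockout array and 117 on the wild-type array. This is the one difference past 2-fold among the 27, at 1.25 ± 0.22 on the log2 scale or 2.38-fold higher, by the gene's only probe. Among all genes measured on both arrays, 2.01% had a higher value. With normexp the difference was 0.37, and it lay between 1.33 and 1.44 over the other scalings and the deposited value table. Slc1a2, or GLT-1, was above background on the knockout array only by its brightest probe, 22.3 against 15.4, with no bound above 1, while Slc1a1, Slc1a6 and Slc1a7 were above background on neither array. The promoter of Slc1a3 at chr15:8710758-8711057 (minus strand, GRCm38.p6) is shown as that of the called gene and holds neither motif searched.
Slc1a3 promoter: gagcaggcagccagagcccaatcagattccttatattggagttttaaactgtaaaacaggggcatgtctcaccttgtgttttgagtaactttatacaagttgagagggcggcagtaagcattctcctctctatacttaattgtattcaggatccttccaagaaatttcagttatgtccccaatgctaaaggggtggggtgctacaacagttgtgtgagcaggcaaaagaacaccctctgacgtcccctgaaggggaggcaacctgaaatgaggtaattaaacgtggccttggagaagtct

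Several marker lists of other cell types were higher on the same array as Slc1a3 and Slc7a7, and their part in these values was not tested. For comparison, 50.4% of all genes measured on both arrays were higher on the knockout array, and 3.97% at least 2-fold higher. Of 7 macrophage and dendritic cell markers, 6 were well above background on both arrays, 5 of them higher on the knockout array, with summed signals over all 7 of 87120 on the knockout array and 85080 on the wild-type array. Among them Mrc1 was 2.62-fold and Vcam1 2.56-fold higher, while Cd163 was above background on neither array. Siglech, the one lower marker (-0.08), made up most of both sums, with 67500 on the knockout array and 74900 on the wild-type array. The stromal and endothelial list was split, with 3 of 6 genes higher, each by at least 2-fold, and summed signals of 4030 and 2559. The fibroblast collagen gene Col1a2 was 2.42-fold higher, and the pericyte receptor Pdgfrb 2.32-fold. Those lower in that list were Pecam1 (-0.44, past its scanner error), Cdh5 (-0.04) and Madcam1 (-0.13). Among markers of CD8 and NK cells 5 of 6 were higher, with summed signals of 33690 and 16590. Klrb1c was the lower one (-0.19, within its scanner error). Most of both sums came from Klra1, 2.94-fold higher with 24700 on the knockout array and 8790 on the wild-type array. Of the mast cell, basophil and neutrophil markers 6 of 7 were higher, and Cpa3 was 3.31-fold and Fcer1a 2.81-fold higher. Mcpt8 went the other way, 1.74-fold lower and past its scanner error. Their sums were 127500 and 124300, mostly from S100a9, which was nearly equal at 89000 on the knockout array and 92000 on the wild-type array. Of the kidney, gut and brain markers, 2 of 7 were measured on both arrays, Aqp4 of astrocytes with -0.81 and Epcam with 0.28. The sums over all 7, the dim ones included, were 331.1 and 379.4, and Lct, Umod and Vil1 were above background on neither array.

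The neutral carriers of family SLC1 exchange alanine, serine, cysteine and, for Slc1a5, glutamine. Slc1a4, or ASCT1, had 6190 on the knockout array and 9420 on the wild-type array, 1.45-fold lower (-0.54 ± 0.20), and kept its sign over the other scalings, normexp and the deposited table. Slc1a5, or ASCT2, gave 2 readings. Its brighter probe had 2850 and 2970, a difference of 0.0062, and its dimmer probe had 317 on the knockout array and 567 on the wild-type array, a difference of -0.77 ± 0.20. The promoter of Slc1a4, at chr11:20332664-20332963 (minus strand), holds the C/EBP-ATF element (TTGCATCA, its reverse complement) from 4 bases before the start, and is shown for that match.
Slc1a4 promoter: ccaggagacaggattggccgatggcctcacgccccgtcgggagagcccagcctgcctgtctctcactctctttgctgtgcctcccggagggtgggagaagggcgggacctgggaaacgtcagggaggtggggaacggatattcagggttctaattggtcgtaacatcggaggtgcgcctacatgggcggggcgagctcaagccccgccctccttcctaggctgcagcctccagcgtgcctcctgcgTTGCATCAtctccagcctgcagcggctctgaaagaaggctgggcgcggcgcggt

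The SNAT carriers of family SLC38 couple neutral amino acids to sodium, and 7 of the 11 were measured on both arrays. Of these, 5 were lower on the knockout array by more than their scanner error, against 30.6% of all genes measured on both arrays, and none was higher by as much, against 30.0% of all. Members of a family are not replicates, and the difference from all genes was not tested. Slc38a1, or SNAT1, a glutamine carrier of activated lymphocytes, differed most, with 2320 on the knockout array and 4470 on the wild-type array by its brightest probe, 1.84-fold lower (-0.88 ± 0.20). Only 5.32% of all genes measured on both arrays had a lower value. Its other probes gave -0.26, at signals of 250.0 and 314, and 0.13, at 54.8 and 52.4, so the size and the sign depend on the probe.

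Slc38a7, a lysosomal carrier of glutamine and asparagine in human cells, had 235 on the knockout array and 385 on the wild-type array, 1.57-fold lower (-0.65 ± 0.21). Slc38a6 had 57.9 and 85.5 (-0.50 ± 0.23). Slc38a8, known as a glutamine carrier of eye and brain, and Slc38a10 were dimmer, at 19.1 on the knockout array against 28.2 (-0.50 ± 0.37) and 23.2 against 34.6 (-0.51 ± 0.32). The 648 genes in that lowest of 20 bands of signal had a median difference of -0.52, so both values are close to that of other genes as dim. Slc38a2, or SNAT2, which cells raise when amino acids run short, was nearly equal at 1670 and 1640. So was Slc38a9, an arginine sensor of mTORC1 on the lysosome, with 1140 on both arrays by its brightest probe, and -0.09 and -0.78 by its other probes.

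Carriers seen on 1 array only were at the edge of detection. Slc38a4, a system A carrier of liver, was well above background on the knockout array only, with 25.4 against 5.08. Its bound of 1.08-fold leaves out the scanner error, which was 3.26 on the knockout signal, against a wild-type limit of 24.6. With normexp its log2 difference was -0.91. Slc38a5, a system N carrier of glutamine and serine, was the one member seen on the wild-type array only. Its signals were 5.68 on the knockout array and 26.9 on the wild-type array, a bound of 2.63-fold lower on the knockout array. This bound too leaves out the scanner error, which was 5.62 on the wild-type signal. All 143 genes seen on the wild-type array only had a bound of at least 2-fold (100.0%), against 4.52% of those seen on the knockout array only, as that bound is set against the lower calling limit of the knockout array. The bound of Slc38a5 therefore says no more than its call. Slc38a3 and Slc38a11 were above background on neither array. The promoter of Slc38a5, at chrX:8271131-8271430 (plus strand), is shown as that of the member with the largest bound, and holds an E-box 30 bases before the start.
Slc38a5 promoter: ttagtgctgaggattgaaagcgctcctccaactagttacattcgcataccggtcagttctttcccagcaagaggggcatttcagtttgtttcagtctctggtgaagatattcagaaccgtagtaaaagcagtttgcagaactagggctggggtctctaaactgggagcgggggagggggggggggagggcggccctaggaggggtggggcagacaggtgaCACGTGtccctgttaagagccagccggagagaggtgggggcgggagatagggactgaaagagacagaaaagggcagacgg

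Proton-coupled carriers of family SLC36 move small neutral amino acids. Slc36a1, which sits on lysosomes, was lower by both probes, with 50.1 on the knockout array and 62.3 on the wild-type array by the brighter one (-0.25 ± 0.24) and -0.44 by the other. Slc36a2, a glycine and proline carrier, was 1.76-fold higher, with 158 against 94.1 (0.81 ± 0.22), but gave -0.091 with normexp. Slc36a3 and Slc36a4 were above background on neither array.

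The SLC43 carriers, which pass large neutral amino acids without a partner chain, were near equal at the brighter probes. Slc43a2, or LAT4, had 1480 on the knockout array and 1520 on the wild-type array (0.03 ± 0.20). Slc43a3, a family member that carries purine bases, had 873 and 1050 (-0.20 ± 0.21). Slc43a1, or LAT3, a dim probe at 70.5 and 51.0, gave 0.53 ± 0.25 and turned to -0.59 with normexp.

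Both SLC6 members were higher on the knockout array. Slc6a9, the glycine carrier GLYT1, was 1.79-fold higher by its brighter probe, with 619 against 363 (0.84 ± 0.21), and its other probe gave 0.59 at 481 and 334. Both probes thus agreed in sign and in size to within 0.24. GLYT1 is known from red cell precursors as well as brain. Of the 4 red cell precursor markers measured on both arrays, 1 was higher and 3 lower on the knockout array (50.4% and 49.6% of all genes). Epor was 2.17-fold higher and Alas2 2.22-fold lower. The globin gene Hbb-bt had 2570 on the knockout array and 3430 on the wild-type array, and Slc4a1, the anion exchanger of red cells, had 17.6 and 35.4. Klf1 was above background on neither array. Slc6a6, the taurine carrier, had 6460 on the knockout array and 5170 on the wild-type array (0.39 ± 0.20). Slc7a6os, which is no carrier, had 814 and 591 (0.53 ± 0.20), while Slc7a6, which it lies opposite, was on the other side of 0.

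**Figure D3:**
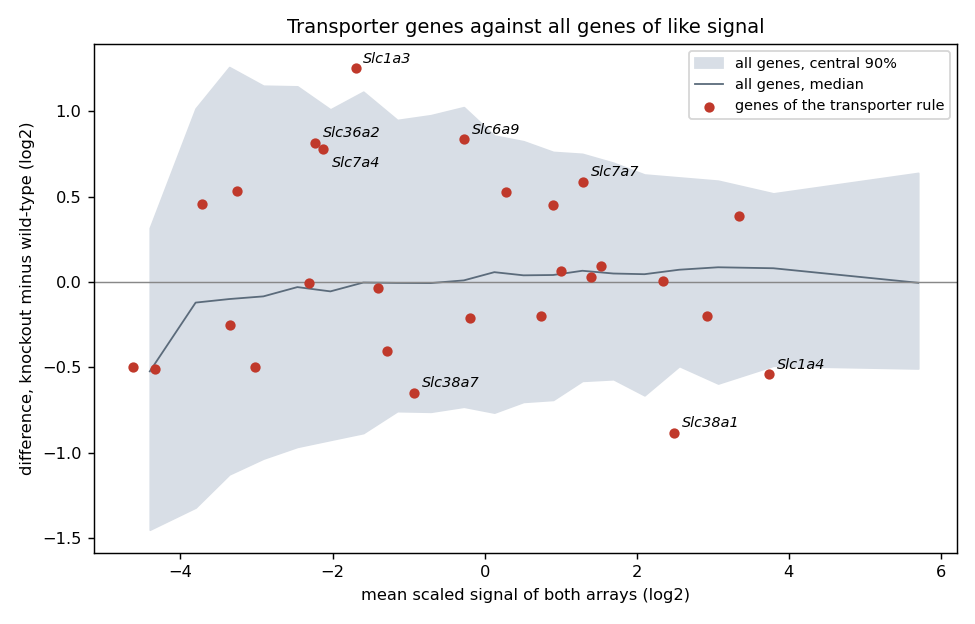
Difference between the arrays (knockout minus wild-type, log2) against the mean scaled signal of both arrays (log2), for the 27 genes in red over the central 90% (band) and the median (line) of all 12958 genes in 20 bins of like signal. Slc1a3 lies above the band, Slc38a1 and Slc1a4 below it, and the other 24 inside.

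Set against genes of like signal, 1 of the 27 lay above the 95th percentile of its bin, against 5.09% of all genes, and 2 lay below the 5th percentile, against 5.09%. Each bin held 647 to 649 genes. The gene above was Slc1a3, whose bin ended at 1.11. Those below were Slc38a1 and Slc1a4, whose bins began at -0.49 and -0.49. Bright genes spread less between the arrays, so Slc1a4, at -0.54, stood outside its bin while larger differences of dimmer genes, such as Slc36a2 and Slc7a4, stood inside.

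At a lower threshold of 1.5-fold, 5 of the 27 were higher (18.5%, against 11.0% of all genes), namely Slc1a3, Slc6a9, Slc36a2, Slc7a4 and Slc7a7, and 2 were lower (7.41%, against 11.9%), Slc38a1 and Slc38a7. At 3-fold none of the 27 was higher, against 0.656% of all genes, and none lower, against 0.864%. Not all of these values are firm. The probes of Slc38a1 disagreed. Slc36a2 and Slc7a4 changed sign with normexp, but that setting also put near-equal dim probes below 0, as described below. Their turn shows that the values depend on the background correction and is no check of direction.

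**Figure D4:**
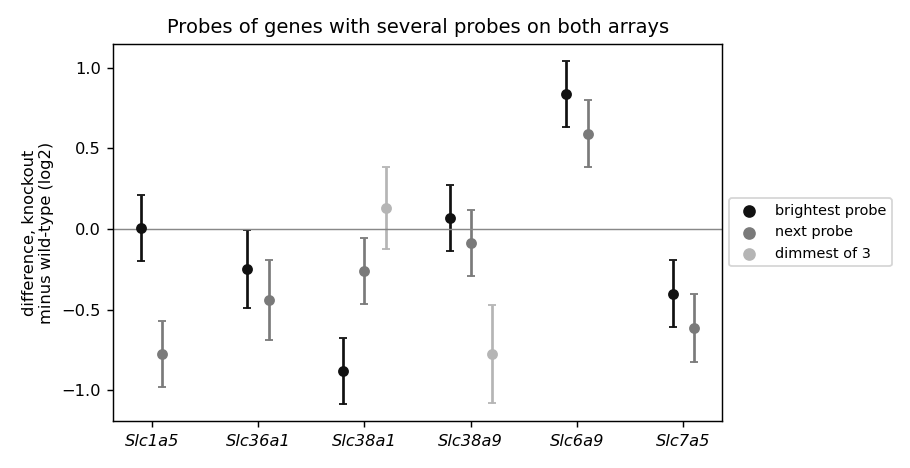
Difference between the arrays (knockout minus wild-type, log2), with the scanner error as bars, for each probe of the 6 genes with several probes well above background on both arrays, brightest probe first. The probes of Slc36a1, Slc6a9 and Slc7a5 share a sign, and those of Slc1a5, Slc38a1 and Slc38a9 do not.

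Probes of the same gene differed by about as much as genes did. Of the 6 genes with several probes on both arrays, 3 had probes of 1 sign, against 59.9% of the 2902 such genes on the array. The gap between the highest and lowest probe of a gene had a median of 0.512 and ran from 0.19 for Slc36a1 to 1.01 for Slc38a1. A difference read from 1 probe of these genes is thus less certain than its scanner error shows.

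**Figure D5:**
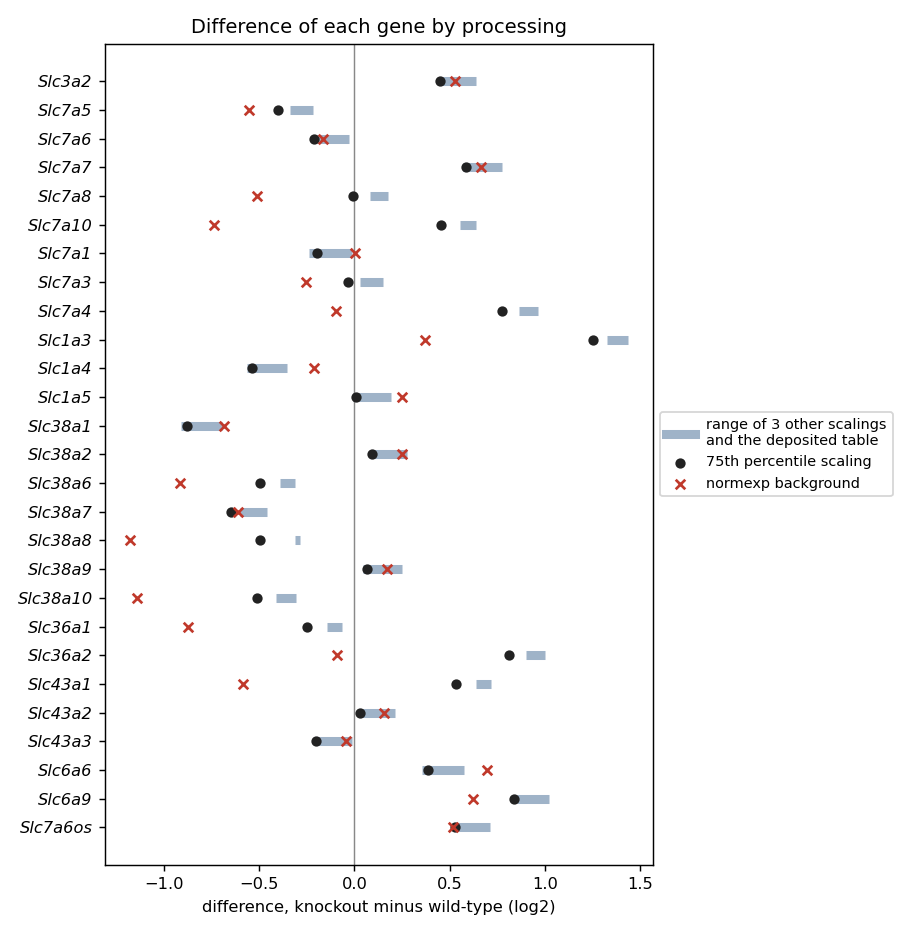
Difference of each of the 27 genes (knockout minus wild-type, log2) with scaling to the 75th percentile (black), the range over 3 other scalings and the deposited value table (blue bar) and normexp background correction (red cross). Dim genes such as Slc43a1 and Slc7a10 move farthest with normexp, and the blue bars keep the sign of every gene that passed its scanner error.

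Of the 19 genes beyond their scanner error, all 19 kept their sign with centring on the median, quantile normalization, loess and in the authors' deposited table. With normexp 15 of the 19 kept it, and Slc36a2, Slc43a1, Slc7a10 and Slc7a4 did not. With normexp the dimmest probes read well below 0, whichever array was brighter. Slc38a4, brighter on the knockout array, went from 2.39 to -0.91, and Slc38a5, brighter on the wild-type array, from -2.18 to -1.45. Slc7a9, at the floor of both arrays, read -1.44 with normexp and -1.27 without it. Dim genes that were already lower, such as Slc38a8 (-1.18) and Slc38a10 (-1.14), could therefore hardly change sign. Their kept sign is no check of direction. Slc7a8, nearly equal at 112.6 on the knockout array and 118.5 on the wild-type array, read -0.51 with normexp. The turned sign of Slc36a2, Slc43a1, Slc7a10 and Slc7a4 is thus no check of direction either.

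Genes that work with the carriers were described from lists of the same pathway. Of 28 other amino acid carriers, 16 were measured on both arrays, with a median of 0.12 against 0.0037 over all genes. None was at least 2-fold different, against 3.97% of all genes higher and 3.63% lower, shares that leave little to count among 16 genes. The largest differences were those of Slc16a10, which passes aromatic amino acids, with 94.8 on the knockout array against 55.4 on the wild-type array (0.84 ± 0.24), then the creatine carrier Slc6a8 with 165 and 99.9 (0.79 ± 0.22). Both gave values below 0 with normexp (-0.35 and -0.029). The mitochondrial glutamate carrier Slc25a22 had 2280 and 3820 (-0.68).

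Amino acid sensing by mTORC1 had 34 of 37 genes on both arrays, none at least 2-fold higher (3.97% of all genes) and 2 lower (3.63% of all), with a median of -0.06. Sesn2, a leucine sensor that holds mTORC1 down when leucine is short, had 513 on the knockout array and 1800 on the wild-type array, and its relative Sesn3 had 1270 and 3090. These are 3.35-fold and 2.33-fold lower. Regulators of the carriers had 15 of 15 genes on both arrays, none at least 2-fold different (3.97% of all genes higher, 3.63% lower), and a median of -0.08. Bsg, a chaperone of lactate carriers, was lower with 113 and 226, and the ubiquitin ligase Rnf5, known to act on SLC1A5 and SLC38A2 in human cells, with 101 and 196. Myc, which drives carrier genes in activated T cells, had 502 and 631 (-0.26 ± 0.20).

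The enzymes that use the amino acids had 32 of 37 genes on both arrays, 1 at least 2-fold higher (3.97% of all genes) and 2 lower (3.63% of all), with a median of 0.02. Gpt2, a mitochondrial alanine transaminase, had 117 on the knockout array and 61.1 on the wild-type array, 2.00-fold higher and -0.16 with normexp. Ido1, which degrades tryptophan and is known from dendritic cells, was 2.57-fold lower with 47.9 against 129, and Gatm, the first enzyme of creatine synthesis, 2.49-fold lower with 146 against 381. In the ATF4 response 26 of 28 genes were on both arrays, 2 at least 2-fold higher and 1 lower, to be read against the same shares of all genes, with a median of -0.05. Atf5 had 5370 on the knockout array and 2540 on the wild-type array (2.21-fold higher), Vldlr 158 and 78.3 (2.11-fold higher, 0.010 with normexp on the log2 scale), and the lower gene was Sesn2. Atf4 itself had 31400 and 27900 (0.24 ± 0.20). Of the 6 T cell markers 3 were higher and 3 lower on the knockout array (50.4% and 49.6% of all genes). Their summed signals were 47710 and 49850, with Lck the brightest at 28200 and 25100. Past the scanner error, Cd3d (0.22) and Lck (0.23) were higher and Cd3e (2.18-fold) and Cd3g (-0.71) lower. The B cell markers had 88790 and 108000, lower in 6 of 7 genes (49.6% of all genes were lower), with Blk 2.66-fold and Cd79a 2.27-fold lower on the knockout array. That is the direction of the lower carriers Slc38a1, Slc1a4 and Slc7a5, and the part of B cells in those values was not tested.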

How the data were processed

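RNA of 1 knockout and 1 wild-type culture was labelled with Cy3 and hybridised to 1-colour Agilent mouse arrays. The deposited scanner files give the processed signal, an intensity with background already subtracted. Agilent Feature Extraction 11.0.1.1 made it, per the submitters' processing notes. The deposited value table gives log2 values with a median of 5.356 in each column, by a method not given in the sources used here. Both arrays share a slide and a scan, per the file headers.

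Control spots were dropped, as were gene spots flagged as outliers (138 knockout and 228 wild-type of 43020), and spots of a probe were averaged. A probe counted as well above background if most of its spots did. Signals were scaled as log2 minus the array's 75th percentile. Probes were named through unversioned RefSeq accessions (GRCm38.p6 table), which matched 27220 of 39411, and the other 12191 were not used here. A gene took its brightest probe well above background on at least 1 array. To be called, a gene had to pass background on each array and to differ 2-fold or more (1 on the log2 scale). On 1 array only, a bound divides the bright signal by the dim array's calling limit, its lowest signal well above background, or by the dim signal where that is higher. The error of a difference combines the scanner errors of both spots. Alternatives used limma 3.58.1 in R 4.3.3, and normexp ran on the median pixel intensity with an offset of 50. The gene summary was tested on simulated data. No p-value was computed. The genes named are all members above background on an array, and from each list those with the largest difference of at least 2-fold, or the 2 largest. Members and some markers above background on neither array are named without a fold. Sirt1, Myc and Atf4 are always named. Slc25a22, Cd3d, Cd3g, Cd4, Cd5, Lck, Ms4a1, Siglech, S100a9, Hbb-bt and Slc4a1 were named outside this rule, after their values were seen. So were Pecam1, Cdh5, Madcam1, Klrb1c and Mcpt8. For the red cell precursor markers, the count and sum over the whole list are not reported here. Members and lists were chosen with earlier results of these data known.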

Additional observations from a re-analysis of the deposited data

How the results depend on the processing

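Direction and size depended mainly on the background correction. Against 1 gene of the rule at least 2-fold higher and 0 lower, the count higher was 2 with centring on the median, 0 with normexp, 3 with no filter on background, 5 at 1.5-fold and 0 at 3-fold. The count lower was 2 with normexp, 9 with no filter and 2 at 1.5-fold. The second gene after centring was Slc6a9, at 1.02 where the median of all genes was 0.19, and the 2 lower with normexp were Slc38a8 and Slc38a10, both dim. The median of the other amino acid carriers moved to -0.35 with normexp and -0.15 with no filter, and the cause was not tested. Over all genes the median was -0.06 with normexp and -0.12 with no filter. The counts past 2-fold and the median kept their values, to within the scanner error for the median, with quantile normalization, loess, the mean over probes, the dimmest probe and the authors' deposited table, and in alternatives chosen after seeing the data, without Slc7a6os and with signal of at least 100 on both arrays. Over 32 named genes, 251 values were recomputed, 222 moved by less than the scanner error and 29 by more, 20 of them with normexp. Values with no filter could not move, nor could those of single-probe genes with the mean over probes or the dimmest probe. Only Slc1a3 had a call that could reverse. It kept its sign throughout, but with normexp it fell below 2-fold, to 0.37 on the log2 scale. No paired analysis was possible because each genotype had 1 array. Signal near background limits the 7 genes under 100 on an array.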

Other observations

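Some members had probes that differed in whether they were seen at all. The second Slc7a4 probe read 2.04 on the knockout array and 5.18 on the wild-type array, at the floor, while its brighter probe read 167 and 102. The other Slc1a2 probes read 3.39 and 5.34, and 2.53 and 5.12, on the knockout and wild-type arrays. A Slc36a4 probe read 2.92 on the knockout array and 14.0 on the wild-type array, above background on neither, and the other read 7.56 and 7.14.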
